A study of Mus musculus with 56 samples.

Results

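Mt1 and Mt2 are the 2 metallothionein genes described here, chosen by symbol from 22864 genes listed for mouse heart. They were proposed because earlier results of these same libraries had named Mt2 for its amplitude and its moved peak, so their levels, peak times and differences between regimens are given as a description, with no test. Both passed the filter on low values, a mean of at least 1 TPM (reads per exon base, brought to one common total), as 2 of 13869 genes. PolyA RNA of whole hearts was sequenced from female C57BL/6J mice aged 9 weeks, an inbred strain with no transgene, kept in 12 h of light and 12 h of darkness. After 7 days of free access, food was offered for 7 days in the light phase to some mice (daytime-restricted feeding, DRF) and only in darkness to the others (nighttime-restricted feeding, NRF, the control regimen, since mice are nocturnal). Hearts were taken at zeitgeber time (ZT, hours after lights on) 0, 4, 8, 12, 16, 20 and 24, with 4 libraries in each of 14 groups and 56 in all. The food of DRF mice thus began at ZT0 and that of NRF mice at ZT12, while light was the same for both.

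Metallothioneins are small, cysteine-rich proteins that bind zinc and copper ions and hand them on to other proteins. Zinc that enters the cell binds the transcription factor MTF-1, which then switches on Mt1 and Mt2 through metal response elements in their promoters, together with the zinc exporter Slc30a1. Glucocorticoids, inflammatory cytokines and oxidants are further known inducers, and in the heart metallothioneins are known for protection against oxidative injury. Mt1 and Mt2 are expressed in most tissues, whereas Mt3 is best known from brain.

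On GRCm38 the genes lie side by side on the plus strand of chromosome 8. Mt2 (ENSMUSG00000031762) spans chr8:94172664-94173568 and Mt1 (ENSMUSG00000031765) spans chr8:94179082-94180327. Both encode proteins. The 250 bases before each RefSeq start (GRCm38.p6, plus strand) are printed to show the metal response element letters before the annotated starts. Capitals mark the core letters of the metal response element, TGCACNC or TGCGCNC, searched on both strands.
Mt1, chr8:94178839-94179088: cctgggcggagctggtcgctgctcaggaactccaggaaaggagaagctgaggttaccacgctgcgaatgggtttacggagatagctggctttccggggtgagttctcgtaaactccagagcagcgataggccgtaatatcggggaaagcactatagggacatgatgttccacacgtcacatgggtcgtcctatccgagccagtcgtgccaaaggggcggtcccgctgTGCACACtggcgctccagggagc
Mt2, chr8:94172368-94172617: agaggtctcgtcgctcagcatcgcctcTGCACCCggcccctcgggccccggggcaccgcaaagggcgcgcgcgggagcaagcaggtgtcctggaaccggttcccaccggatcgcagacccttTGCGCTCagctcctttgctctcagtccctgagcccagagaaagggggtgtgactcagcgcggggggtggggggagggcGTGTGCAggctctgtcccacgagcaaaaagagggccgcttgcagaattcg
The Mt1 window held 1 core and the Mt2 window 3, and of 32817 promoter windows of the same length 21.4% held at least 1 and 1.26% at least 3. RefSeq starts need not be the starts used in heart, and 2 of 3 GENCODE transcripts of Mt1 begin 122 and 152 bases further on. The GENCODE transcripts Mt2-201 and Mt2-202 begin 46 and 242 bases after the RefSeq start of Mt2. With the 50 bases after the RefSeq start included, Mt1 held 3 cores, as did 1.97% of windows with that many or more, and Mt2 held 4, against 0.518%. The antioxidant response element TGACNNNGC was present once in the Mt2 window, overlapped no core, and was found in 10.2% of windows. The E-box CACGTG and the full palindromic glucocorticoid response element matched neither window, and were found in 6.02% and 0.00914% of all windows. These are matches of letters, not measured binding sites.

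The libraries held 29.5 to 53.4 M recovered reads each (M, mega), and the mitochondrial share of reads was 21.6 ± 1.46% in the 28 DRF libraries and 20.3 ± 1.56% in the 28 NRF libraries (mean ± SD). Heart identity was checked on 6 cardiomyocyte markers, which summed to 22876 TPM or more in every library. Of 56 libraries, 54 lay nearest their own group, with ZT0 and ZT24 of the same regimen taken as the same clock time. Profiles were compared over the 500 most group-dependent genes, Mt1 and Mt2 left out. The other 2 lay nearest each other's group. The library labelled DRF ZT4 replicate 1 correlated at r = 0.882 with NRF ZT8 and at 0.340 with its own group, and the library labelled NRF ZT8 replicate 1 at 0.827 with DRF ZT4 and at 0.287 with its own group. Labels were kept, and the levels of Mt1 and Mt2 at ZT4 and ZT8, the peak shifts, and the counts over all lists are given with and without them.

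The members differ in how well they were counted. Mt1 took 2467 to 10973 reads per library and Mt2 1 to 103 reads. An antisense gene, Gm45774, covers 432 of the 588 exon bases of Mt2 (73.5%) and leaves 156 bases free, while no annotated gene overlaps the 1246 exon bases of Mt1. Gm45774 itself took 0 to 9 reads. Whether strand was used in counting is not given in the sources used here, and the kit does not mark strand, so reads of Mt2 and of its antisense partner cannot be told apart. Whether reads in the 432 shared bases were counted for either gene cannot be told from the deposited values. The TPM of Mt2 divides by all 588 bases. The mean level of Mt1 over all libraries was 254 TPM and that of Mt2 3.89 TPM, but these levels are not comparable with each other, and only the course of each gene over time is described. Reads of Mt1 and Mt2 can be separated by sequence, since their longest shared exact stretch was 20 bases against reads of 150 bases.

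Mt1 was high in the late dark phase under DRF and in the early dark phase under NRF. At ZT0 the DRF libraries held 343, 285, 361 and 341 TPM and the NRF libraries 208, 153, 176 and 152 TPM. At ZT4 the values were 229, 214, 197 and 200 TPM under DRF and 180, 163, 185 and 144 TPM under NRF. Every DRF library was above every NRF library at both times, and without the doubtful replicate 1 the DRF mean at ZT4 was 204 TPM against 168 TPM. At ZT8 the order turned, with 129, 146, 179 and 159 TPM under DRF and 170, 232, 231 and 302 TPM under NRF. The single overlap at ZT8 came from NRF replicate 1 (170 TPM), a library nearest another group, and without it the NRF mean was 255 TPM against 153 TPM. At ZT12 Mt1 reached 171, 190, 221 and 219 TPM under DRF and 368, 298, 299 and 295 TPM under NRF, with no overlap.

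At ZT16 the mean of Mt1 was still lower under DRF. DRF libraries held 327, 338, 227 and 290 TPM and NRF libraries 392, 408, 322 and 307 TPM, which overlap. At ZT20 Mt1 stood at its highest under DRF, with 359, 369, 482 and 392 TPM, whereas NRF libraries had fallen to 232, 217, 253 and 187 TPM. All DRF values lay above all NRF values again. At ZT24 the libraries held 294, 403, 311 and 321 TPM under DRF and 156, 225, 138 and 130 TPM under NRF. ZT24 is the same clock time as ZT0, and the DRF means of Mt1 at these times were 332.3 and 332.4 TPM and the NRF means 162 and 172 TPM.

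**Figure D1:**
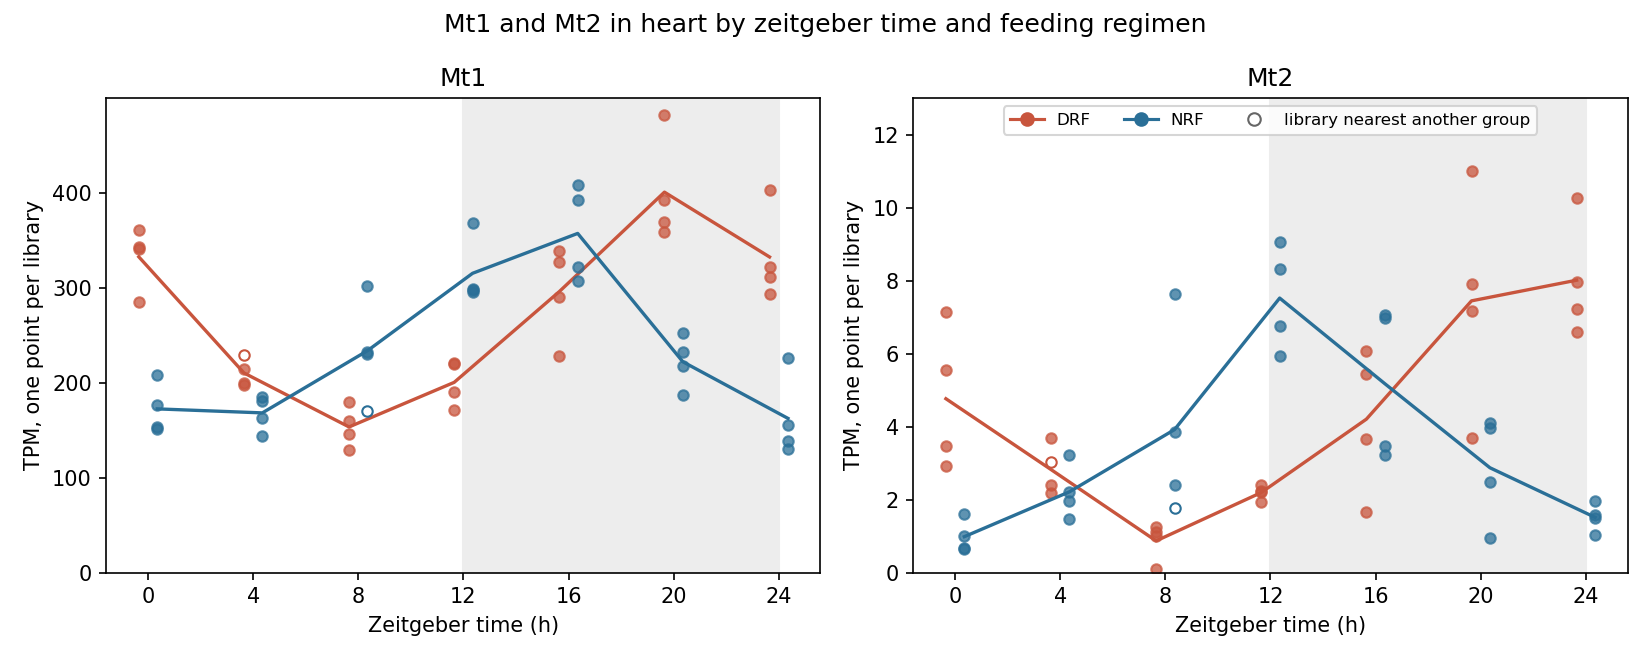
Levels of Mt1 (left) and Mt2 (right) in TPM against zeitgeber time in hours, one point per library, 4 per group. Lines join group means (red DRF, blue NRF), grey is the dark phase, and open points are the 2 libraries nearest another group. For Mt1 the DRF points lie above the NRF points at ZT0, ZT4, ZT20 and ZT24 and below them at ZT12.

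Mt2 followed a course like that of Mt1, with larger swings around a low count. At ZT0 the DRF libraries held 3.47, 2.91, 5.54 and 7.13 TPM, and the NRF libraries 0.675, 1.61, 0.994 and 0.652 TPM, from 40 reads in all. At ZT4 the values were 3.04, 3.69, 2.17 and 2.39 TPM against 1.95, 1.48, 2.20 and 3.22 TPM. The regimens were apart at ZT0 and overlapped at ZT4, where the DRF mean was 2.82 TPM, or 2.75 TPM without replicate 1. At ZT8 Mt2 was near its floor under DRF, with 0.111, 1.01, 1.25 and 1.11 TPM, from 1, 12, 15 and 12 reads. NRF libraries at ZT8 held 1.77, 3.85, 2.41 and 7.64 TPM, all above DRF, and their mean was 3.92 TPM, or 4.63 TPM without replicate 1. At ZT12 the regimens stood apart in the same direction, with 2.40, 2.22, 2.22 and 1.93 TPM under DRF and 8.31, 5.94, 9.06 and 6.76 TPM under NRF.

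At ZT16 the Mt2 values overlapped, with 5.44, 3.66, 1.66 and 6.06 TPM under DRF and 6.96, 7.06, 3.21 and 3.47 TPM under NRF. They overlapped at ZT20 as well, where DRF held 3.70, 10.99, 7.91 and 7.18 TPM and NRF 4.10, 2.47, 3.97 and 0.950 TPM. At ZT24 every DRF library, with 7.97, 10.3, 6.58 and 7.23 TPM, was above every NRF library, with 1.49, 1.58, 1.02 and 1.963 TPM. Mt2 did not return as closely as Mt1 from ZT24 to ZT0, with DRF means of 8.01 and 4.76 TPM and NRF means of 1.51 and 0.984 TPM.

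In folds, the DRF mean of Mt1 was 1.93 times the NRF mean at ZT0, 1.80 times at ZT20 and 2.047 times at ZT24, while the NRF mean was 1.57 times the DRF mean at ZT12. On the log2(TPM + 1) scale, DRF minus NRF for Mt1, in the order of the ZTs above, was 0.95, 0.32, -0.59, -0.65, -0.28, 0.85 and 1.05 (SE 0.15 each). For Mt2 the DRF mean was 4.84 times the NRF mean at ZT0 and 5.29 times at ZT24, and the NRF mean 4.51 times the DRF mean at ZT8 and 3.43 times at ZT12. The log2 differences of Mt2 were 1.503, 0.26, -1.31, -1.40, -0.28, 1.15 and 1.84 in the same order of ZTs (SE 0.31 each). Without the 2 libraries nearest another group they were 0.28 at ZT4 and -0.73 at ZT8 for Mt1, and 0.23 and -1.54 for Mt2. The differences at ZT16 were within 2 SE of 0 for both genes, and so was that of Mt2 at ZT4. Leaving out DRF replicate 3 turned the sign of Mt2 at ZT16, to 0.015.

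Groups of Mt1 did not overlap at 5 of 7 ZTs, with DRF above at 4 and below at 1. Over all other tested genes DRF lay wholly above NRF for 5.2% at ZT0, 1.81% at ZT4, 4.46% at ZT20 and 6.99% at ZT24, and wholly below for 11% at ZT12, and 0.606% of genes were apart at 5 or more ZTs. Mt2 groups did not overlap at 4 ZTs, with DRF above at ZT0 and ZT24 and below at ZT8 and ZT12. Wholly below at ZT8 were 6.09% of genes, and 2.69% were apart at 4 or more ZTs. Since Mt1 and Mt2 were proposed from this contrast, nothing is read from these shares.

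The fitted peaks came later in the day under DRF than under NRF. Cosine curves with a period of 24 h placed the peak of Mt1 at ZT20.4 under DRF (SE 0.27 h) and at ZT14.1 under NRF (SE 0.43 h), a difference of 6.37 h (SE 0.51, 95% interval 5.37 to 7.36 h). Mt2 peaked at ZT20.9 (SE 0.49 h) and at ZT12.8 (SE 0.57 h), 8.13 h apart (SE 0.75, interval 6.67 to 9.60 h). The differences were 6.59 and 8.41 h without the 2 libraries nearest another group. By the classes of the study, which call 0 to 4 h phase locked and 8 to 12 h phase inverted, Mt1 falls between the classes and Mt2 lies at the edge of the phase-inverted class. Among 2455 other genes that were rhythmic under both regimens (17.7% of those tested), 52.1% had peaks 0 to 4 h apart, 30.3% 4 to 8 h and 17.7% 8 to 12 h. A DRF peak 4 to 10 h later than the NRF peak was found for 301 of them (12.3%), and one 4 to 10 h earlier for 685 (27.9%).

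Amplitude was similar under both regimens. The amplitude, the height of the fitted curve above its mean, was 0.67 (SE 0.05) under DRF and 0.58 (SE 0.06) under NRF for Mt1 on the log2 scale, and 1.00 (SE 0.13) and 0.88 (SE 0.12) for Mt2. The curve took up 88.3% and 78.3% of the variance of Mt1 and 70.9% and 69.7% of that of Mt2. Group means of Mt1 spanned 2.61-fold under DRF, from ZT8 to ZT20, and 2.20-fold under NRF, from ZT24 to ZT16. The day's mean was 0.11 higher under DRF for Mt1 (SE 0.06) and 0.03 higher for Mt2 (SE 0.11), each within 2 SE of 0.

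Measured from the start of feeding, Mt1 peaked 3.58 h before food under DRF and 2.06 h after food under NRF, and Mt2 3.11 h before and 0.756 h after. At the start of feeding itself the levels of Mt1 were close. Mt1 stood at 332.4 ± 33.0 TPM at DRF ZT0 and 315 ± 35.6 TPM at NRF ZT12 (mean ± SD, n = 4), and the log2 difference was 0.08 (SE 0.15). Mt2 was 4.76 ± 1.94 TPM at DRF ZT0 and 8.01 ± 1.601 TPM at DRF ZT24, against 7.52 ± 1.42 TPM at NRF ZT12, with log2 differences of -0.61 and 0.08 (SE 0.31 each). From there the courses of Mt1 parted: 4 h into feeding Mt1 was 210 ± 14.8 TPM under DRF (ZT4) and 357 ± 50.5 TPM under NRF (ZT16), and 8 h into feeding 153 ± 21.3 TPM (ZT8) and 222 ± 27.7 TPM (ZT20). In the fasting phase the order was opposite. At 16 h Mt1 held 296 ± 49.9 TPM under DRF and 168 ± 18.5 TPM under NRF, and at 20 h 401 ± 56.1 TPM and 234 ± 54.0 TPM. The groups of Mt1 did not overlap at 4, 8, 16 or 20 h, whereas those of Mt2 overlapped at each of these times, with log2 differences of -0.64, -1.01, 0.63 and 0.84 (SE 0.31 each). Without the 2 libraries nearest another group the Mt1 mean was 204 TPM at DRF ZT4 and 255 TPM at NRF ZT8.

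**Figure D2:**
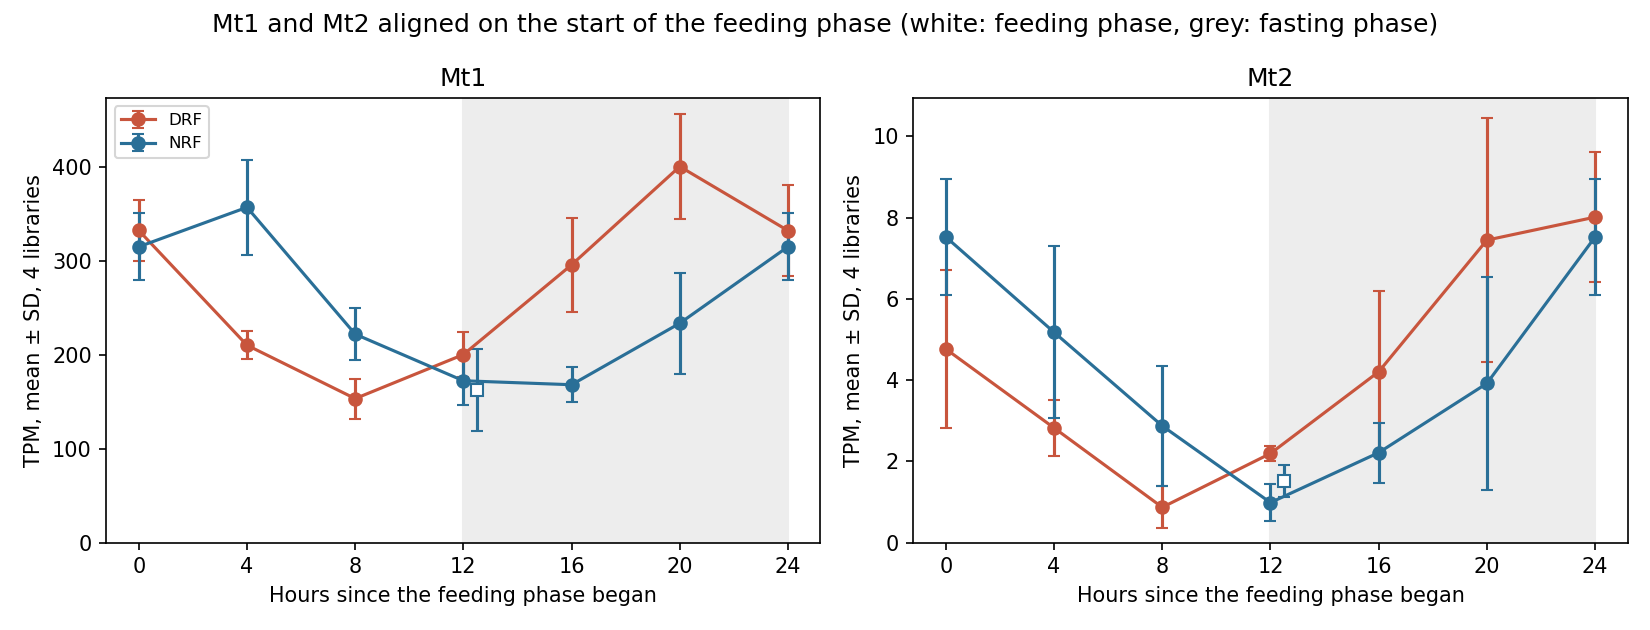
Mean ± SD of 4 libraries in TPM for Mt1 (left) and Mt2 (right) against hours since the feeding phase began (ZT0 for DRF in red, ZT12 for NRF in blue), with the fasting phase in grey. The NRF point at 0 h is drawn again at 24 h, and the open square is NRF ZT24. For Mt1 the courses meet at 0 h (332.4 and 315 TPM), NRF is higher at 4 and 8 h and DRF at 16 and 20 h.

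Neither keeping the clock time nor moving by 12 h brought the 2 Mt1 courses together. The root mean square log2 difference between the DRF and NRF profiles over 6 clock times was 0.67 at the same ZT and 0.61 with NRF moved later by 12 h. With NRF moved later by 4 h it was 0.30 and by 8 h 0.23, the smallest of the 6 lags. For Mt2 it was 1.15 at the same ZT, 0.69 at 12 h and 0.17 at 8 h. Without the 2 libraries nearest another group, 8 h gave the smallest value again, 0.21 for Mt1 and 0.17 for Mt2.

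The ratio of the genes differed between groups, which was not tested. Mt2 reads per 1000 Mt1 reads were 2.56 ± 1.43 at DRF ZT8 and 2.80 ± 1.52 at NRF ZT0, the lowest groups, and 11.4 ± 1.28 at DRF ZT24 and 11.3 ± 2.11 at NRF ZT12, the highest (mean ± SD of 4 libraries). At the same clock time as these extremes the ratio was 6.68 ± 2.42 at DRF ZT0 and 4.61 ± 1.76 at NRF ZT24. The low groups rest on 40 Mt2 reads each and the high groups on 301 and 300 reads, with exact Poisson 95% intervals of 28.6 to 54.5, 268 to 337 and 267 to 336, which cover counting error only.

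Libraries of the same group that were high in Mt1 tended to be high in Mt2. Across the 56 libraries, deviations from the group means, which hold no difference between regimens or ZTs, correlated with Pearson's r = 0.538 (two-sided permutation within groups, p = 0.00038) and Spearman's rho = 0.497 (permutation p = 0.00089). Without the 2 libraries farthest from the median of Mt1, r was 0.517 (permutation p = 0.00124), and without the 2 nearest another group 0.489 (permutation p = 0.00118). Within regimens r was 0.577 under DRF and 0.513 under NRF (28 libraries each). In 39 of 56 libraries both genes deviated in the same direction. Within groups Mt1 also went with depth (r = 0.375) and against the mitochondrial share (r = -0.357), whose part in the result was not tested. Reads of Mt2 varied more within groups than counting error gives, with a variance over mean of 1.06 to 19.7 and a median of 4.12 over 14 groups.

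**Figure D3:**
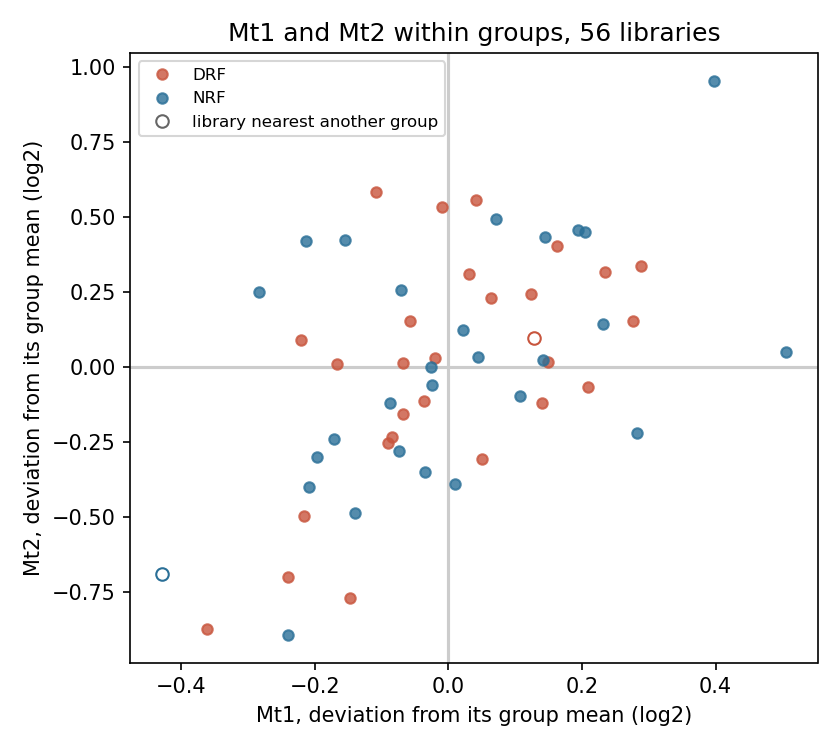
Deviation of each library from its group mean on the log2(TPM + 1) scale, Mt1 on the horizontal and Mt2 on the vertical axis, 56 libraries, red DRF and blue NRF, with the 2 libraries nearest another group as open points. The points rise from lower left to upper right, with r = 0.538.

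Mt3 was the only other metallothionein gene listed. Mt4 was not analysed here. The level of Mt3 was 3.14 TPM on average, with 16 to 163 reads per library. Its group means ran from 2.29 to 4.81 TPM under DRF and from 1.95 to 4.79 TPM under NRF, with SDs up to 3.23 TPM. Mt3 passed the limma F test for a rhythm under neither regimen (adjusted p = 0.798 under DRF and 0.967 under NRF), nor for a difference in rhythm (adjusted p = 0.903).

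Genes of the MTF-1 pathway differed from each other in timing. A difference in rhythm between regimens, by a limma F test adjusted over all genes, was called for 27.6% of all tested genes. Of the 8 tested genes in the list of MTF-1 and its known targets, 4 were called. Mtf1 itself was not (adjusted p = 0.171), with 4.59 to 5.29 TPM under DRF and 4.49 to 6.01 TPM under NRF as group means. Mtf1 passed the rhythm test under NRF (adjusted p = 0.00499, peak ZT20.9, SE 0.88 h) and not under DRF (adjusted p = 0.797).

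Slc30a1, which carries zinc out of the cell, was called (limma adjusted p = 0.000378). Its level at ZT12 was 10.9, 13.6, 10.3 and 13.96 TPM under DRF and 19.1, 17.7, 18.04 and 15.3 TPM under NRF, with no overlap, and it was lower under DRF by limma (log2 difference -0.50, SE 0.12, adjusted p = 0.00752). No other ZT passed the test for Slc30a1. The fitted peak was at ZT8.9 under NRF (SE 0.88 h), while under DRF the rhythm test was not passed (adjusted p = 0.0852). At ZT12 the group order, NRF above DRF, was that of Mt1 and Mt2. Since the members and lists were chosen with earlier results of these data known, nothing is read from this order.

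Slc39a10, an importer of zinc that MTF-1 is known to repress, was timed differently. It peaked at ZT7.5 under DRF (SE 0.49 h) and at ZT22.4 under NRF (SE 1.02 h), with a difference in rhythm (limma adjusted p = 5.05e-07). At ZT20 its levels were 6.495, 6.885, 7.04 and 7.84 TPM under DRF and 12.15, 10.75, 9.753 and 10.35 TPM under NRF. The regimens did not overlap there, and Slc39a10 was lower under DRF by 0.54 on the log2 scale (SE 0.09, limma adjusted p = 7.75e-05). Slc39a10 was lower under DRF at ZT0, ZT16 and ZT24 too (log2 differences -0.37, -0.39 and -0.42, SE 0.09 each, limma adjusted p = 0.00484, 0.00532 and 0.00224). The means of Mt1 and Mt2 were higher under DRF at ZT0, ZT20 and ZT24, and at ZT16 lower by less than 2 SE.

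Slc40a1, the cellular iron exporter ferroportin, had the largest amplitude of the called MTF-1 targets under DRF, 0.44 (SE 0.04). It peaked at ZT0.13 under DRF (SE 0.35 h) and at ZT10.3 under NRF (SE 1.20 h; limma adjusted p for the difference in rhythm = 3.24e-10). At ZT0 DRF libraries held 11.5, 11.01, 9.60 and 10.6 TPM and NRF libraries 6.80, 5.69, 6.70 and 6.36 TPM, and at ZT12 the order was reversed, with means of 5.36 and 7.68 TPM. Gclc, the catalytic subunit of the first enzyme of glutathione synthesis, was the other called target (limma adjusted p = 0.00262), with fitted peaks at ZT22.1 and ZT10.1, of which the first goes with no called rhythm (adjusted p = 0.0626 under DRF).

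**Figure D4:**
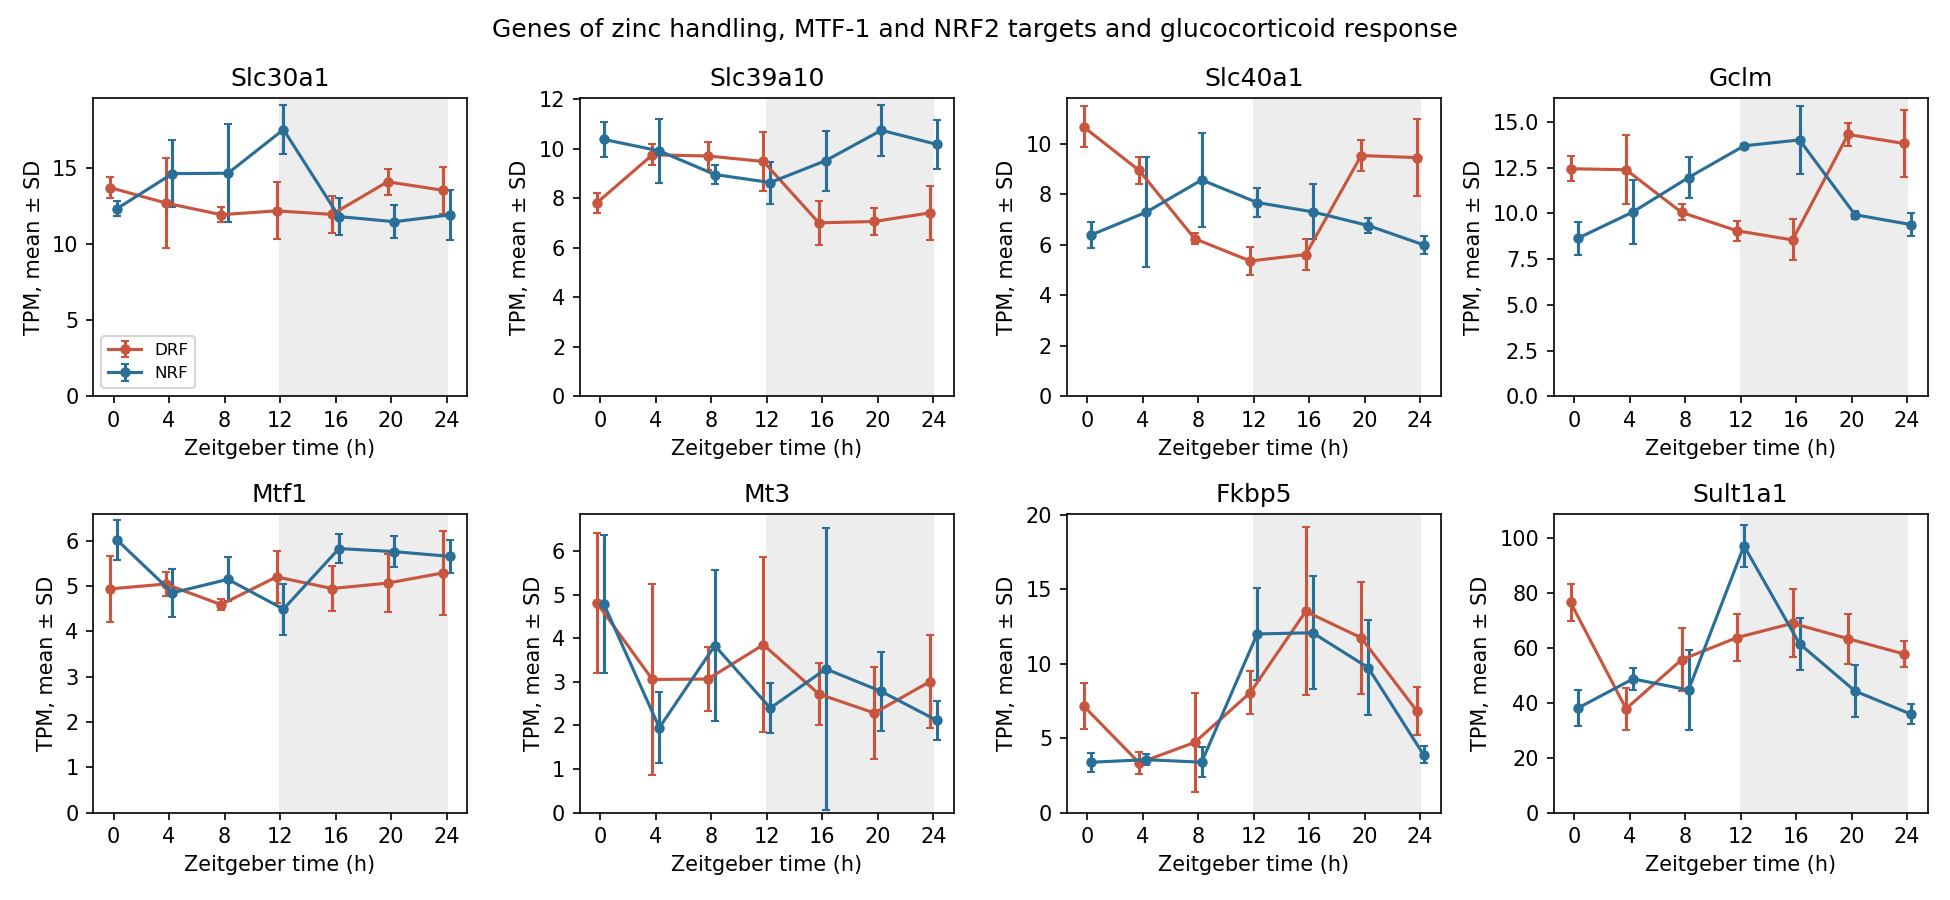
Mean ± SD of 4 libraries in TPM against zeitgeber time in hours for 8 genes, red DRF and blue NRF, grey the dark phase. Slc30a1, Slc40a1 and Gclm are higher under NRF at ZT12, Slc39a10 is higher under NRF at ZT20, and Mtf1 and Mt3 show no difference in rhythm by the test.

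By TPM, metal transport genes were called at a share near that of all genes. Of 6 tested zinc exporters 1 (Slc30a1), of 10 tested importers 3 (Slc39a10, Slc39a14 and Slc39a11) and of 12 tested copper genes 5 were called in the difference in rhythm. Over the distinct genes of these lists and the MTF-1 list, 11 of 34 were called (27.6% over all genes), and 6 without replicate 2 of every group (16.1%). With median-of-ratios scaling 15 of 34 were called, against 33.1% of all genes. Slc39a14, an importer of zinc and iron, peaked at ZT12.4 under DRF (SE 1.19 h) and ZT17.7 under NRF (SE 0.55 h; limma adjusted p = 0.00221). Slc31a1, the main copper importer, peaked at ZT8.7 and ZT21.9 (SE 0.50 and 1.31 h; limma adjusted p = 2.35e-06), near the times of Slc39a10. The other called copper genes were Steap3, Sco1, Cp and Slc31a2, with adjusted p from 0.00149 to 0.0201.

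**Figure D5:**
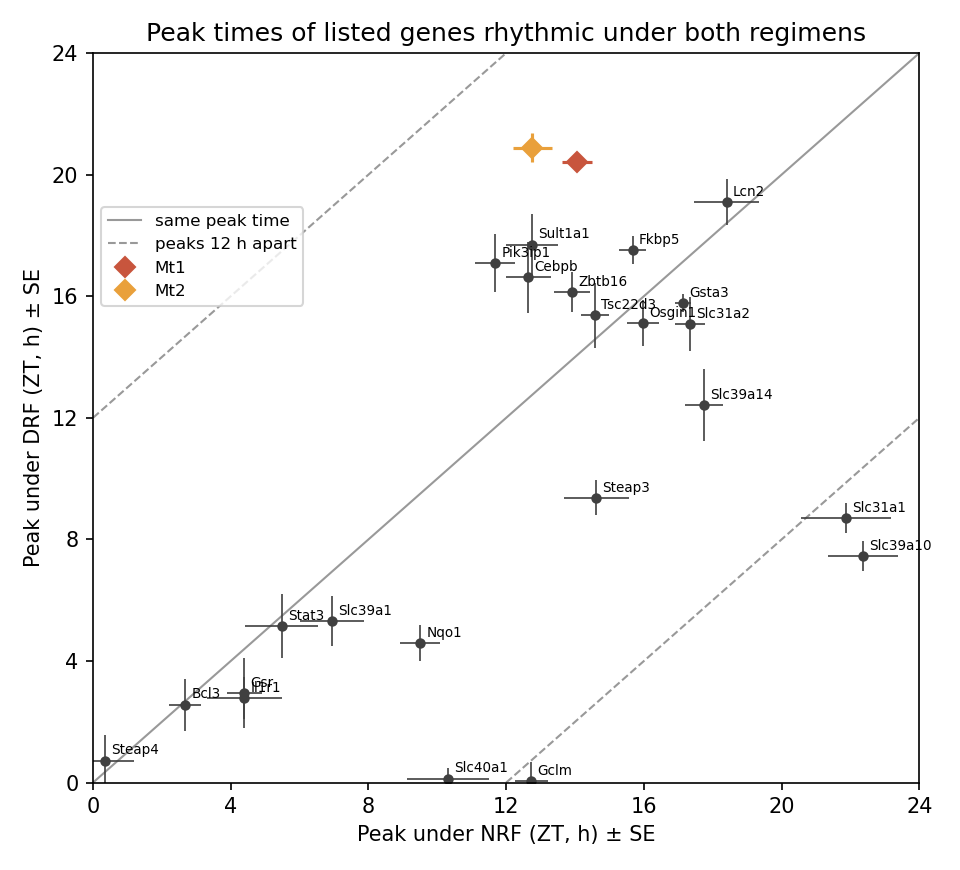
Fitted peak under DRF against peak under NRF, both in ZT hours with SE, for the 23 listed genes that passed the rhythm test under both regimens (grey) and for Mt1 and Mt2 (diamonds). The solid line marks equal peaks and the dashed lines peaks 12 h apart. Mt1 and Mt2 lie between the lines, with differences of 6.37 and 8.13 h, and Gclm and Slc31a1 lie near a dashed line.

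Genes responsive to NRF2, the regulator of antioxidant defence, were called for a difference in rhythm in 6 of 10 tested (27.6% of all genes). Gclm, the modifier subunit that pairs with Gclc, had the lowest p of the lists (limma adjusted p = 3.96e-11). It peaked at ZT0.06 under DRF (SE 0.63 h) and at ZT12.7 under NRF (SE 0.49 h), 11.3 h apart (SE 0.80). Its level at ZT12 was 9.04 ± 0.544 TPM under DRF and 13.7 ± 0.106 TPM under NRF, and at ZT20 14.3 ± 0.623 and 9.92 ± 0.228 TPM (SD, n = 4 each). Nqo1, a quinone reductase, peaked at ZT4.6 and ZT9.5 (limma adjusted p = 6.78e-05), and Gsta3, Hmox1 and Srxn1 passed with adjusted p of 0.0045, 0.0159 and 0.0227. Gclc, described above, is the remaining called gene of the list, of which 8 of 10 were called without the 2 libraries nearest another group (30.6% of all genes). Under DRF the Gclm peak came later than the fitted peaks of both metallothioneins, and under NRF it stood near that of Mt2.

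Glucocorticoid-responsive genes were called for a difference in rhythm in 7 of 11 tested (27.6% of all genes). Fkbp5, a standard reporter of glucocorticoid receptor activity, peaked at ZT17.5 under DRF (SE 0.46 h) and ZT15.7 under NRF (SE 0.39 h), 1.855 h apart (SE 0.61; limma adjusted p for the difference in rhythm = 0.0292). At ZT0 Fkbp5 stood at 8.99, 7.85, 5.72 and 6.04 TPM under DRF and 3.76, 2.80, 4.06 and 2.89 TPM under NRF, with no overlap. Sult1a1, a sulfotransferase, peaked at ZT17.7 and ZT12.8, and Pik3ip1 at ZT17.1 and ZT11.7 (limma adjusted p = 0.00219 and 8.03e-05). Klf9, a transcription factor, rose under NRF to 129 ± 11.7 TPM at ZT12 against 82.3 ± 6.15 TPM under DRF (limma adjusted p at ZT12 = 0.00419). Klf9 and Per1 did not pass the rhythm test under DRF (limma adjusted p = 0.220 and 0.471). Zbtb16 was called as well (limma adjusted p = 0.0492), as were Per1 and Tsc22d3, the last 2 with amplitudes of 0.22 and 0.38 under DRF and 1.27 and 0.81 under NRF. Zbtb16 peaked at ZT16.1 under DRF and ZT13.9 under NRF, and Tsc22d3 at ZT15.4 and ZT14.6. The fitted peaks were ZT13.1 and ZT12.8 for Per1 and ZT19.4 and ZT11.9 for Klf9. Over the 11 genes, rhythmic or not, the median absolute shift was 2.53 h, and 5.61 h without the 2 libraries nearest another group. Mt1 and Mt2 shifted by 6.37 and 8.13 h.

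At ZT0, 7 of the 11 glucocorticoid-responsive genes were higher under DRF and 0 lower, and at ZT12 0 were higher and 4 lower. Of all other tested genes 3.01% were called higher and 8.28% lower at ZT0, and 1.27% and 6.46% at ZT12. At ZT20 and ZT24 the list gave 3 and 4 genes higher and 0 lower, against 3.38% and 4.42% of all genes called higher and 11.4% and 4.46% called lower. The split over all genes depends on scaling: at ZT0 26.7% of calls were higher under DRF, and 46.6% with median-of-ratios scaling, where the list again gave 7 and 0, and at ZT12 16.4% and 44.4%, where it gave 0 and 4. Mt1 and Mt2 had these directions at both times. The members and the lists were chosen with earlier results of these data known, so nothing is read from this match. Of the 12 cytokine (STAT3) responsive genes 2 were called for a difference in rhythm (27.6% of all genes), the transcription factor Cebpb and the secreted protease inhibitor Serpina3n (limma adjusted p = 0.00383 and 0.0207). It was 3 of 12 with median-of-ratios scaling (33.1% of all genes) and without the 2 libraries nearest another group (30.6%). With mitochondrial genes left out of the scaling or with deposited values it was 4 of 12, where no share over all genes is given.

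Over all lists, 25 of 66 tested genes besides the members were called for a difference in rhythm (27.6% of all genes), and 11 to 25 with 1 replicate number left out, the fewest without replicate 2, where 16.1% of all genes were called. Rhythms were called in 33 under DRF and 36 under NRF, against 32.4% and 37.3% of all tested genes. At 1 ZT or more 33 differed between regimens (32.9% of all genes). These counts were 29 for a difference in rhythm (30.6% of all genes) and 41 for 1 ZT or more (39.1%) without the 2 libraries nearest another group. The day's mean was lower under DRF for 19 and higher for 0, against 24.4% and 1.69% of all genes. With median-of-ratios scaling these counts were 9 and 4, and the share of higher calls over all genes went from 6.46% to 42.4%.

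Which genes rose and fell with Mt1 and Mt2 from library to library within a group was asked with the mean deviation of both members as a covariate. Of 13867 genes 5 were called positive by limma (0.0361%) and 0 negative, and 1300 passed an unadjusted p of 0.05 (9.37%). The 5 were Sult1a1 (r = 0.669, adjusted p = 0.00616), Fam107a (r = 0.617, adjusted p = 0.0251), Fkbp5 (r = 0.611, adjusted p = 0.0251), Ttll7 (r = 0.632, adjusted p = 0.0251) and Map3k6 (r = 0.596, adjusted p = 0.0370). Sult1a1 and Fkbp5 are on the glucocorticoid-responsive list. Without the 2 libraries nearest another group none was called (limma adjusted p = 0.0552 for Sult1a1 and 0.102 for Fkbp5, 798 genes under an unadjusted p of 0.05). None was called without replicate 1, 2, 3 or 4 of every group either (528 to 1689 genes under an unadjusted p of 0.05), nor without ZT8 (416 genes).

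Since Mt2 rests on few reads, the same question was put to Mt1 alone, an alternative chosen after the data were seen. It called 197 genes (1.42%), 195 of them positive, and 194 without the 2 libraries nearest another group, of which 112 were shared. With Mt1 alone 74.3% of all genes had a positive slope and 18.4% passed an unadjusted p of 0.05, and Mt1 went with depth and against the mitochondrial share as given above, whose part in these calls was not tested. Nmb, which encodes the peptide neuromedin B, led both times (r = 0.714, limma adjusted p = 0.000352, and r = 0.747, adjusted p = 7.96e-05). With all libraries Herpud1, Prodh, Tcf23 and Ms4a4d came between Nmb and Sult1a1 (limma adjusted p = 0.000528, 0.000528, 0.000528 and 0.000563). Sult1a1, Fkbp5 and Fam107a were called both times, with adjusted p of 0.000563, 0.00227 and 0.00181 with all libraries. Ttll7 and Map3k6 were called with all libraries (limma adjusted p = 0.0307 and 0.0399) and not without the 2 libraries (0.0775 and 0.0993). Mtf1 did not follow Mt1 (r = 0.03, adjusted p = 0.932).

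Of the glucocorticoid-responsive genes, 10 of 11 passed an unadjusted p of 0.05 for following both members, all positive, and 6 of 11 without the 2 libraries, against 8.31% and 4.87% of all genes that passed with a positive slope. With median-of-ratios scaling it was 5 of 11, against 4.05%. Cytokine-responsive genes passed in 7 of 12, and in 3 of 12 without the 2 libraries or with that scaling. MTF-1 targets passed in 2 of 8, and in 0 of 8 without the 2 libraries or with that scaling. NRF2-responsive genes passed in 0 of 10 with all libraries and with that scaling, and in 2 of 10 without the 2 libraries. Zinc exporters passed in 1 of 6, zinc importers in 1 of 10 and copper genes in 2 of 12. Without the 2 libraries or with that scaling these counts were 0, 0 and 1. With Mt1 alone, where 17.1% of all genes passed with a positive slope, glucocorticoid-responsive genes passed with a positive slope in 9 of 11, cytokine-responsive genes in 4 of 12, NRF2-responsive genes in 2 of 10, MTF-1 targets in 1 of 8, zinc exporters in 1 of 6, zinc importers in 4 of 10 and copper genes in 5 of 12. Without the 2 libraries these counts, in the same order, were 5, 2, 4, 0, 0, 2 and 5, against 14.8% of all genes. With both members all genes together leaned positive, with a median r of 0.09 that was 0.00 with median-of-ratios scaling.

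Over the 14 group means, the genes most like Mt1 besides Mt2 (r = 0.926) were Plin4, a lipid droplet protein (r = 0.935), Prodh, proline dehydrogenase (r = 0.927), Scn7a (r = 0.903), Fbxo31 (r = 0.901) and Ggnbp2 (r = 0.895). Prodh peaked at ZT19.3 under DRF and ZT15.2 under NRF and Plin4 at ZT19.9 and ZT15.1, earlier than Mt1 under DRF and later than Mt1 under NRF. The genes least like it were Gpr183 (r = -0.933), Casq2, the calcium store protein calsequestrin (r = -0.917), and Msrb3 (r = -0.916). Casq2 was 665 ± 22.3 TPM at DRF ZT8, when Mt1 was lowest under that regimen.

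Mt1 was the gene most like Mt2 of 13868. After it came Fmo5 (r = 0.893), Map7 (r = 0.892), Fbxo31 (r = 0.887), Gpcpd1 (r = 0.875) and Zxdc (r = 0.875), and the least like were Hspb3, a small heat shock protein (r = -0.919), Casq2 (r = -0.914) and Fgf18 (r = -0.904). These correlations are descriptions over 14 groups of the same 56 libraries. Fbxo31 was high in both lists, with its highest group mean at ZT24 under DRF (52.7 ± 3.67 TPM) and at ZT12 under NRF (52.4 ± 3.52 TPM).

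Around the locus, 15 further listed genes lie within 250 kb, and 8 were tested. Of these 2 were called for a difference in rhythm (27.6% of all genes) and the same 2 at 1 ZT or more (32.9%). Herpud1, a gene of endoplasmic reticulum stress 206 kb away, peaked at ZT17.2 under DRF and ZT14.2 under NRF (limma adjusted p = 3.61e-05) and did not pass the test for following both members (r = 0.410, limma adjusted p = 0.339), while with Mt1 alone it was called (r = 0.697, limma adjusted p = 0.000528). Bbs2, a gene of the primary cilium 73.7 kb away, peaked at ZT0.29 and ZT11.3, 11.03 h apart (limma adjusted p = 9.71e-06).

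Whole hearts hold several cell types, and in bulk samples fewer cells of a type and less RNA per cell cannot be told apart. Within groups the summed TPM of 12 marker lists correlated with Mt1 at r from -0.280 (erythroid) to 0.259 (endothelial), and 0 markers were called to follow Mt1 and Mt2 by limma (2 at an unadjusted p of 0.05). Between regimens the mean level was called by limma lower under DRF for 12 of 43 tested markers and higher for 3 (24.4% and 1.69% of all genes), and for 6 and 2 with median-of-ratios scaling. Lower under DRF were 4 of 5 endothelial, 3 of 4 fibroblast and 2 of 3 macrophage markers. So were 1 of 6 cardiomyocyte, 1 of 4 smooth muscle and 1 of 2 skeletal muscle markers. Higher were 1 of 6 cardiomyocyte, 1 of 5 atrial and 1 of 1 hepatocyte markers. With median-of-ratios scaling 2 of 5 endothelial, 2 of 4 fibroblast, 1 of 3 macrophage and 1 of 2 skeletal muscle markers were lower. Higher with that scaling were 1 of 6 cardiomyocyte, 0 of 5 atrial and 1 of 1 hepatocyte markers. Without that scaling, a difference in rhythm was called for 3 of 43 (27.6% of all genes). Hepatocyte markers, of interest since liver is rich in metallothionein, summed to 0.405 to 68.7 TPM under DRF and 0.255 to 15.2 TPM under NRF, with medians of 3.37 and 1.04 TPM, all 4 genes listed and r = 0.141 with Mt1. Atrial markers ranged from 94.2 to 5436 TPM under DRF and from 128 to 4352 TPM under NRF, with medians of 1785 and 604 TPM and r = 0.055. The part of cell makeup in the results was not tested.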

How the data were processed

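PolyA RNA-seq of 56 mouse hearts was analysed, grouped by the regimen, ZT and replicate in the labels. The submitters' processing notes name HISAT2 2.0.5, featureCounts 1.5.0-p3 and mm10. The deposited values, named TPM by the authors, were not linear: each equals a library constant times log2(1 + scaled reads) over exon length. Whole reads were recovered from these steps with GENCODE M21 exon lengths (853 of 22864 lengths were searched for) and of 1274227 values below 30000 reads, 100% lay no more than 0.1 from an integer. A searched length was accepted only if it gave whole reads, so for those 853 genes this share is no check. Linear TPM was recomputed. This unit differs from the one the design had assumed. Recovery and tests were checked on simulated data.

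Tests used limma 3.58.1 (R 4.3.3) on log2(TPM + 1) for genes averaging 1 TPM or more, Benjamini-Hochberg adjusted p under 0.05, over all genes. Rhythm was an F test of 24-h cosine and sine terms within a regimen (28 libraries), a difference in rhythm an F test of their interaction with regimen, and differences at a ZT were contrasts of 14 group means. Changes of genes near 1 TPM are understated. The labels call replicates separate samples and tie none to an animal across groups, so p-values measure the spread between libraries.

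The members, gene lists and marker lists were chosen with earlier results of these data known. The text names Mt1, Mt2, up to 5 called genes a list by lowest p plus Mtf1, Slc30a1, Slc39a10, Slc39a14, Mt3, Mt4 and Fkbp5, called neighbours within 250 kb, the 5 most and 3 least alike genes, and up to 8 positive and 4 negative genes that follow the members; of the alternative with Mt1 alone, a few were chosen after their values were seen. Deviations of same-numbered libraries correlated at a mean r of 0.017 (-0.006 for other numbers), 25.3% of such pairs were over 0.1, 21 of 56 libraries correlated best with their own number, and the labels give the numbers no shared source, so replicates were not treated as pairs. Alternatives were other scalings, a pseudocount of 0.1, no filter, the deposited values, a replicate block, and leaving out replicates or ZTs. Leaving out the 2 libraries nearest another group and the use of Mt1 alone were added after seeing the data.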

Additional observations from a re-analysis of the deposited data

Results flagged for a closer look

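Of the 28 groups of 4 values of Mt1 and Mt2, 1 held a value far from the other 3: NRF ZT12 replicate 1, with 368 TPM of Mt1 against 295 to 299 TPM. About 1 in 20 such groups would hold one by chance. Without this library the log2 difference of Mt1 at ZT12 was -0.58.

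The rhythm of the listed genes below differed between DRF and NRF by the interaction test (limma adjusted p): among zinc genes Slc30a1 (0.000378), Slc39a10 (5.05e-07), Slc39a14 (0.00221) and Slc39a11 (0.00428), among further MTF-1 targets Slc40a1 (3.24e-10) and Gclc (0.00262), and among copper genes Slc31a1 (2.35e-06), Steap3 (0.00149), Sco1 (0.00365), Cp (0.00821) and Slc31a2 (0.0201). On the glucocorticoid-responsive list they were Klf9 (7.31e-06), Pik3ip1 (8.03e-05), Per1 (0.00117), Sult1a1 (0.00219), Tsc22d3 (0.0184), Fkbp5 (0.0292) and Zbtb16 (0.0492). The remaining ones were Gclm (3.96e-11), Nqo1 (6.78e-05), Gsta3 (0.0045), Hmox1 (0.0159) and Srxn1 (0.0227) of the NRF2 list and Cebpb (0.00383) and Serpina3n (0.0207) of the cytokine list. Zbtb16 and Srxn1 lie outside the rule on names and are given to complete the counts.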

How the results depend on the processing

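The peak shift stayed between 5.93 and 6.69 h for Mt1 and between 7.20 and 9.01 h for Mt2 over all alternatives run. Both ends of the Mt2 range came from leaving out a replicate number (4 and 1), so Mt2 crossed the limit of 8 h between classes. With all libraries kept it was below 8 h too, at 7.89 h with median-of-ratios scaling and 7.93 h with deposited values. Without ZT4, ZT16 or ZT24 the Mt2 shift was 7.61, 7.72 and 7.79 h. With the deposited log-scaled values the differences of Mt1 shrank to 0.19, 0.062, -0.12, -0.13, -0.042, 0.19 and 0.22 from ZT0 to ZT24, since that scale compresses abundant genes, and that of Mt2 at ZT12 was -1.20. With a pseudocount of 0.1 the differences of Mt2 were 2.16 at ZT0, -2.14 at ZT8, -1.72 at ZT12 and 2.34 at ZT24. No alternative reversed a called result.

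Counts of listed genes moved more. Those with a higher mean level under DRF went from 0 to 4 with median-of-ratios scaling, to 1 with mitochondrial genes left out of the scaling, with deposited values, or without ZT0 or ZT8, and to 2 without ZT4 or ZT12. Those with a lower mean went from 19 to 9 with median-of-ratios scaling, to 10 with mitochondrial genes left out, with deposited values or without ZT16, and to 6 without ZT8. Without ZT16, 19 were rhythmic under DRF. Leaving out a replicate number gave 23 to 34 listed genes rhythmic under NRF, 11 to 25 with a difference in rhythm, 0 to 1 with a higher and 7 to 20 with a lower mean, and 16 to 33 called at 1 ZT or more. The calls of Slc30a1, Slc39a10, Slc39a14, Slc40a1, Slc31a1, Gclm, Nqo1, Klf9 and Pik3ip1 passed in all alternatives run for them, and the other calls of a difference in rhythm that were recomputed (all named but Zbtb16, Srxn1, Bbs2 and Herpud1) were lost in at least 1, while Mtf1 was called in 2 (lowest adjusted p 0.0185 by limma).

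Genes that followed Mt1 and Mt2 within groups numbered 1 with no filter on low values, 0 with deposited values, 11 without ZT0, 1 without ZT4, 0 without ZT8, 1 without ZT12, 1 without ZT20 and 3 without ZT24. Without ZT16 they numbered 5, of which 4 were positive and 1 negative, and Fkbp5 and Map3k6 were not called (limma adjusted p = 0.110 each). They numbered 0 without each replicate number, 0 without the libraries nearest another group, 197 with Mt1 alone and 194 with both changes. The within-group correlation of Mt1 and Mt2 was 0.42 without ZT8, and 0.43 to 0.66 without each replicate number. The cause of these changes was not tested.

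With a replicate block the shift of Mt1 was 6.37 h, that of Mt2 8.13 h, and 5 genes followed the members. Of 56 libraries 21 correlated best with their own replicate number. The block changed no other call that is named here. The depth of Mt2, 1 to 103 reads per library, limits its values at the trough most.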
